A study of Mus musculus with 8 samples.

Results

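Sarcomeric actins, tropomodulins and leiomodins are the genes that build muscle thin filaments and set the length of these filaments at their slow-growing end. They were chosen by name, as Acta1, Actc1, Tmod1, Tmod3, Tmod4, Lmod2 and Lmod3, and all 7 were found among the 47643 genes of the deposited table. In a thin filament, actin monomers assemble into a double helix whose barbed end is held at the Z-disc and whose pointed end lies free toward the middle of the sarcomere. Tropomodulins cap that pointed end, and leiomodins, which belong to the same protein family, bind there and promote actin assembly. Adult limb muscle uses Acta1 as its main actin, while Actc1 is the actin of the heart and of developing skeletal muscle, and mutations of ACTA1 or LMOD3 cause nemaline myopathy in people.

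The study compared quadriceps of mice lacking the nucleoporin Nup210, a membrane protein of the nuclear pore, with that of controls. There were 4 mice labelled Nup210-/- and 4 labelled Nup210+/+, all labelled C57BL/6 and, per the study's methods, backcrossed to C57BL/6J, each giving 1 library of polyadenylated RNA. The Nup210-/- mice carry a constitutive deletion of exon 2 in all tissues, and the age and sex of these mice were not given in the sources used here. Each value is for whole muscle, so fewer cells of a type and less RNA per cell cannot be told apart.

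Expression was given as TPM, a relative transcript level corrected for transcript length, with each library brought to a total of 1000000. Read depth is unknown from such values, so the error of each value rests on the spread between mice. Nup210 mRNA was 8.81 to 11.93 TPM in the libraries labelled Nup210-/- and 5.71 to 10.11 TPM in those labelled Nup210+/+. It was thus not lower where the gene was labelled as deleted, TPM of a whole gene need not show the loss of 1 exon, and every direction below rests on the labels. The tissue was checked with marker genes. The summed level of 8 genes of skeletal muscle fibres was 84103 to 92561 scaled TPM (TPM brought to a common scale, as described below) in the libraries labelled Nup210-/- and 70422 to 90828 in those labelled Nup210+/+. The sum of 7 heart genes was 1.85 to 3.41 and 2.2 to 2.81 scaled TPM, with Nppb and Myl7 at 0 in every library, so the level of Actc1 was read in tissue whose heart markers were near 0. Of the Nup210+/+ libraries, replicate 2 stood apart, with 368 scaled TPM of 6 granulocyte precursor genes against 0.309 to 2.06 in the other 7 libraries, and values that it moved by over 1.5 times are given without it.

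The alpha-actin genes Acta1 and Actc1 are so alike in their coding sequence that the sharing of reads had to be considered first. Both coding sequences, without the stop codon, hold 1131 bases or 377 codons in the annotation used (GENCODE M21 on GRCm38), and 86.3% of the bases are identical. Of the 155 bases that differ, 148 are at the third position of a codon, and 4 codons differ in the amino acid they encode. The start of each coding sequence is shown because it gives the typical pattern, with capitals for the bases that differ between the genes. The Acta1 stretch lies at chr8:123893638-123893697 and the Actc1 stretch at chr2:114051972-114052031, both on the minus strand and each within 1 exon.
Acta1, coding bases 1 to 60: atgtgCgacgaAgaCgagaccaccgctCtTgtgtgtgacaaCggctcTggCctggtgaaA
Actc1, coding bases 1 to 60: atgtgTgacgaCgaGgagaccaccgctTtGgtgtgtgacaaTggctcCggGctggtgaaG

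The reads were 75 bases long. No window of 75 bases was shared by any 2 of the 7 genes, and the longest run common to transcripts of Acta1 and Actc1 was 29 bases. Within aligned windows of 75 bases, the coding sequences differed by 3 to 17 bases.

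Of 1372 windows of 75 bases in Acta1 transcripts, 6 also occurred in other genes, namely Actb and the gene model Gm47692. In Tmod1 the number was 77 of 3084 windows, shared with 46 other genes, and in the other 5 genes it was 0. Exons of Tmod1 overlap those of Tstd2 on the opposite strand. The libraries kept the strand, but whether the counting used it is not given in the sources used here, so the level of Tmod1 is the least certain of the 7 in its assignment. No exon of the other 6 genes overlaps another gene.

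Serum response factor (SRF), which binds a DNA element called the CArG box, drives actin genes in muscle, and this element was searched for in the stretch from 250 bases before to 50 bases after the gene start (RefSeq, GRCm38.p6). A sequence was found for 5 of the 7 genes, all but Tmod3 and Lmod3. A CArG box was matched on either strand in Acta1 and Actc1, and not in Tmod1, Tmod4 or Lmod2. It occurred in 1.63% of 32851 promoters. The site of MEF2, a family of muscle transcription factors, was matched in 0 of the 5, and in 3.19% of all promoters. The sequences upstream of both actin genes are shown because they are the promoters with a match, which stands in capitals. In Acta1 the box lies 73 to 64 bases before the start, in the stretch chr8:123894776-123895025 on the minus strand.
Acta1, upstream: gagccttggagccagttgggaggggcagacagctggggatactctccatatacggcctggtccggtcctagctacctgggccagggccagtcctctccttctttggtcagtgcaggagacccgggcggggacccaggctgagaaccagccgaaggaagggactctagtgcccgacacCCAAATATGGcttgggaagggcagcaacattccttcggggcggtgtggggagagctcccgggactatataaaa
In Actc1 it lies 47 to 38 bases before the start, in chr2:114052888-114053125, also on the minus strand.
Actc1, upstream: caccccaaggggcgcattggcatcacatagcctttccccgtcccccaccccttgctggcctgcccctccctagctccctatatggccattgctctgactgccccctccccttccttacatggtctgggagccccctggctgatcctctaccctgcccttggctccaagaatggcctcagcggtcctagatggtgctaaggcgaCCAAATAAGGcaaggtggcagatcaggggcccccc
A match is a description of these letters and not a measured binding site.

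The 7 genes differed far more from each other than between genotypes. Acta1 had 19035.57 to 23217.38 TPM, which was 1.9 to 2.32% of all transcripts and between the 7th and the 11th highest level in a library. Tmod4, the tropomodulin of fast muscle fibres, came next with 424.85 to 445.55 TPM, so the mean level of Acta1 was 48.7 times that of Tmod4. Actc1 followed with 188.53 to 379.85 TPM and made up 0.851 to 1.9% of the summed TPM of both alpha-actins. Tmod1, the tropomodulin that caps sarcomeric filaments in heart and skeletal muscle, had 150.02 to 175.50 TPM. Lmod2, the leiomodin best known from the heart, had 104.39 to 173.97 TPM. Lmod3, the leiomodin of skeletal muscle, had 64.20 to 80.35 TPM, and Tmod3, which caps actin filaments outside the sarcomere in many cell types, had 9.38 to 14.94 TPM. Each gene in this order was higher than the next in 8 of 8 libraries, except that Tmod1 was above Lmod2 in 6 of 8, namely all 4 labelled Nup210-/- and 2 labelled Nup210+/+. Tmod1 and Lmod2 were therefore the neighbours whose levels did not separate. Tmod4 gave 69.6 to 72.9% of the summed TPM of Tmod1, Tmod3 and Tmod4, and Lmod2 gave 60.8 to 71.1% of that of Lmod2 and Lmod3.

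For the genotypes to be compared, a factor of 0.936 to 1.12 per library, the median ratio of its genes to their geometric mean over the libraries, was divided out of the TPM, which gave the scaled TPM above. Fold changes are on the log2(scaled TPM + 1) scale, positive where the libraries labelled Nup210-/- were higher, and were tested with limma over 14229 genes. All 7 genes passed the filter on low values. At an adjusted p of 0.05, limma called 0 of the 7, where 0.112% of all genes tested were called, 0.0492% higher and 0.0633% lower. An unadjusted p of at most 0.05 was found for 4 of the 7, against 14.2% of all genes. Of these, Acta1 and Tmod1 had a higher estimate, against 7% of all genes, and Tmod3 and Lmod2 a lower one, against 7.18%. This split depended on the scaling. With TPM as deposited, 335 of all genes were higher and 1679 lower at that p, and of the 7 genes 0 were higher and 2 lower, Tmod3 and Lmod2. When libraries were instead scaled to 8 genes of skeletal muscle fibres, an alternative chosen after the values were seen, 128 were higher and 2308 lower, and of the 7 genes 0 were higher and 3 lower, Actc1, Tmod3 and Lmod2. The 4 values of one genotype lay entirely above those of the other in 2 of the 7, Acta1 and Tmod1, against 9.38% of all genes. Both were higher in the libraries labelled Nup210-/-, where 4.78% of all genes were higher and 4.6% lower without overlap. With TPM as deposited 0 of the 7 were without overlap, and with the scaling to fibre genes it was 2 other genes, Actc1 and Lmod2, both lower. The median log2 fold change was 0.05 over the 7 genes and -0.01 over all genes tested. The count at an unadjusted p of 0.05 rested on single libraries. It was 2 without Nup210-/- replicate 1, 2 or 4 and 1 without Nup210-/- replicate 3 or Nup210+/+ replicate 1 or 3. The count without overlap was 1 without Nup210-/- replicate 4 and 4 without Nup210+/+ replicate 4.

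**Figure D1:**
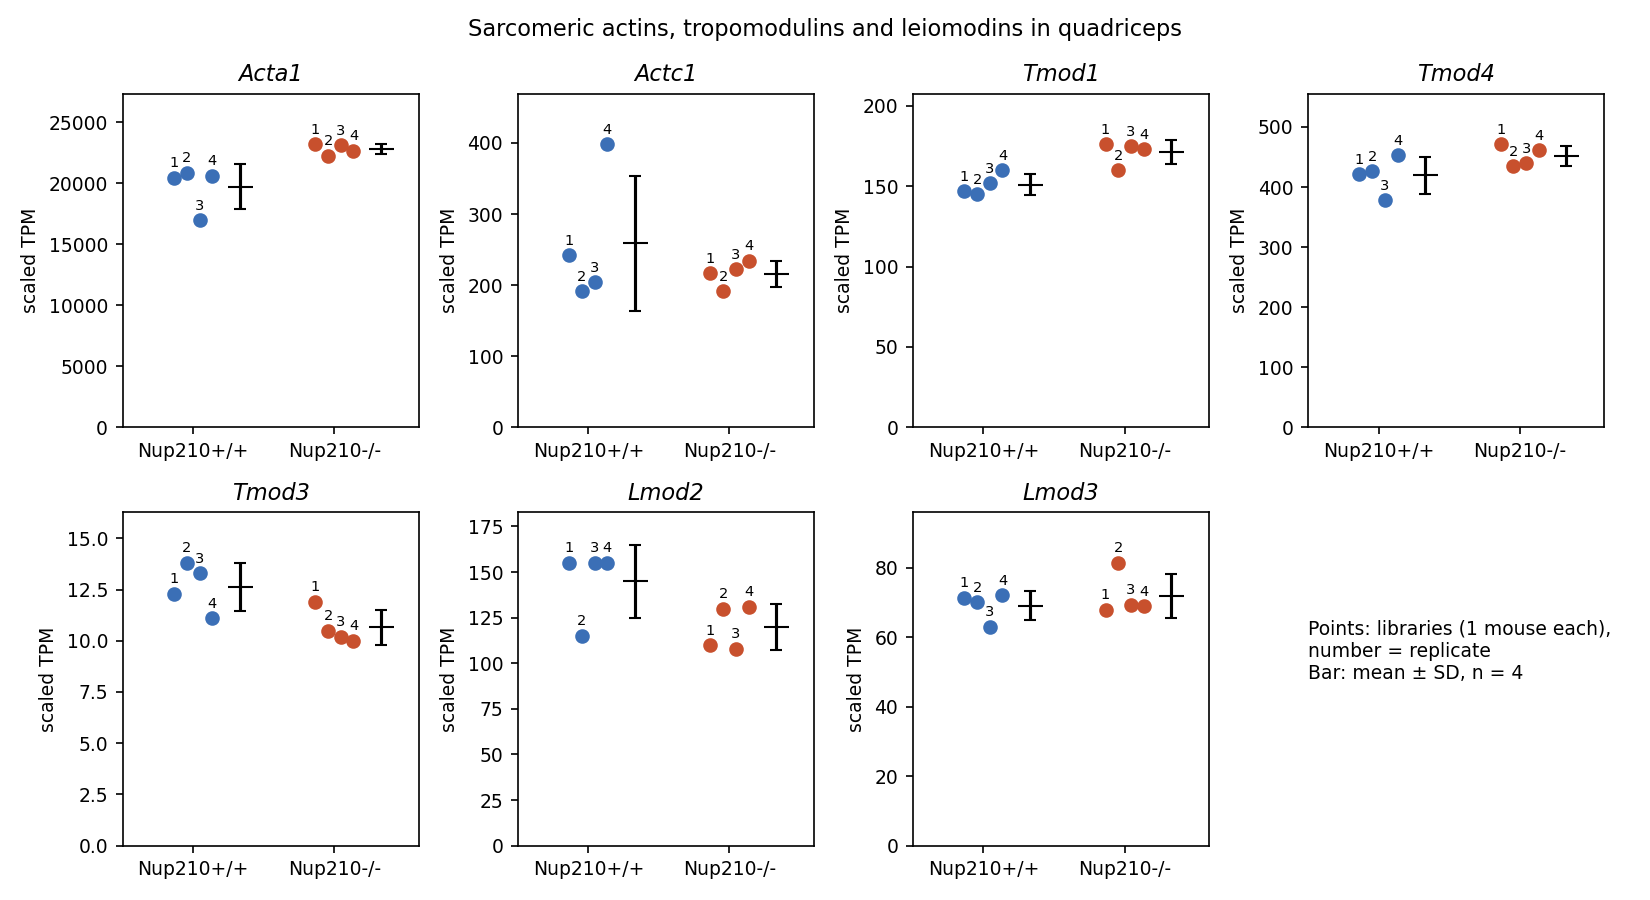
Level of each of the 7 genes in scaled TPM (vertical axis, from 0) in the 4 Nup210+/+ and the 4 Nup210-/- libraries, with points numbered by replicate and bars for the mean ± SD. Acta1 and Tmod1 did not overlap between genotypes, Nup210+/+ replicate 4 was highest for Actc1 at 398, and Nup210+/+ replicate 2 was lowest of its genotype for Lmod2 at 115.

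Acta1, the skeletal muscle alpha-actin (ENSMUSG00000031972), lies on chromosome 8 from 123891769 to 123894751 on the minus strand. In replicates 1 to 4 labelled Nup210-/- it had 23172, 22246, 23121 and 22668 scaled TPM, and in those labelled Nup210+/+ it had 20437, 20863, 16949 and 20597. All of the former were above the latter, in which replicate 3 was lowest and the other 3 were close together. The log2 fold change was 0.21 (SE 0.095, 95% interval 0.00 to 0.43), with an adjusted p of 0.351 by limma, and it was 0.15 without Nup210+/+ replicate 3. An exact permutation test of the scaled values, two-sided, gave p = 0.0286, the smallest that 4 against 4 can give. On the TPM as deposited the genotypes overlapped (exact permutation test, p = 0.0571). The 8 fibre marker genes moved the same way, with 8 of 8 estimates positive, against 48.7% of all genes tested. Their median log2 fold change was 0.16, and their sum was also lowest in Nup210+/+ replicate 3. A separate list of 8 slow fibre genes had 7 negative estimates and a median of -0.15. With the scaling to the 8 fibre marker genes, not the slow fibre genes, the log2 fold change of Acta1 was 0.04 (95% interval -0.12 to 0.20). Relative to the 8 fibre marker genes, a higher level of Acta1 was thus not detectable.

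Actc1, the cardiac alpha-actin (ENSMUSG00000068614), lies on chromosome 2 from 114047282 to 114053548 on the minus strand. It had 217, 191, 222 and 234 scaled TPM in replicates 1 to 4 labelled Nup210-/-, and 242, 191, 204 and 398 in those labelled Nup210+/+. The last of these libraries stood above the other 7, which ranged from 191 to 242 and overlapped. The log2 fold change was -0.20 (SE 0.205, 95% interval -0.66 to 0.26; limma, adjusted p = 0.682), the widest interval of the 7 genes. Without Nup210+/+ replicate 4 it was 0.03 and without Nup210+/+ replicate 2 it was -0.32. With the scaling to fibre genes it was -0.37 (95% interval -0.68 to -0.06, adjusted p = 0.253), and all 4 libraries labelled Nup210-/- lay below all 4 labelled Nup210+/+. The direction of Actc1 thus depended on replicate 4 and its overlap on the scaling. The heart marker sum of Nup210+/+ replicate 4 was 2.43 scaled TPM, within the range of the other libraries. Its sum of 8 slow fibre genes, 2075, and its sum of 7 genes of developing or regenerating fibres, 27 scaled TPM, were the highest of the 8 libraries. The slow fibre sum was 2003 in Nup210-/- replicate 4, which had 234 scaled TPM of Actc1. The sum for developing or regenerating fibres was 26 in Nup210+/+ replicate 1, which had 242. The part of these fibre types in the level of Actc1 was not tested.

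Tmod1 (ENSMUSG00000028328) spans 77098 bases of chromosome 4, from 46038935 to 46116032 on the plus strand. In replicates 1 to 4 it had 176, 160, 175 and 173 scaled TPM where labelled Nup210-/- and 147, 145, 152 and 160 where labelled Nup210+/+. The genotypes did not overlap, but only by 160.14 in Nup210-/- replicate 2 against 159.90 in Nup210+/+ replicate 4. This was a log2 fold change of 0.18 (SE 0.056, 95% interval 0.05 to 0.31; limma, adjusted p = 0.21). Tmod1 had the lowest unadjusted p of the 7 genes, which stayed at or below 0.05 in 19 of 21 alternative fits. The 2 exceptions were the TPM as deposited, with a log2 fold change of 0.09, and the scaling to fibre genes, with 0.01.

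Tmod4 (ENSMUSG00000005628), on chromosome 3 from 95124476 to 95129209 on the plus strand, had 471, 435, 440 and 461 scaled TPM in replicates 1 to 4 labelled Nup210-/- and 421, 426, 378 and 453 in those labelled Nup210+/+. The genotypes overlapped, and Nup210+/+ replicate 3 was again lowest. Its log2 fold change was 0.11 (95% interval -0.04 to 0.26; limma, adjusted p = 0.47), 0.02 with TPM as deposited and -0.06 with the scaling to fibre genes, so its direction depended on the scaling.

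Tmod3 (ENSMUSG00000058587), on chromosome 9 from 75497707 to 75559657 on the minus strand, was the lowest of the 7. It had 11.9, 10.5, 10.2 and 10 scaled TPM in replicates 1 to 4 labelled Nup210-/- and 12.3, 13.8, 13.3 and 11.1 in those labelled Nup210+/+. Of the Nup210-/- libraries, 3 lay below every Nup210+/+ library, and replicate 1 lay between Nup210+/+ replicates 4 and 1. The log2 fold change was -0.22 (SE 0.0873, 95% interval -0.42 to -0.02; limma, adjusted p = 0.301). Leukocyte genes differed in the same direction. All 8 of a marker list had a negative estimate, with a median log2 fold change of -0.65, and their sum was 218 to 244 scaled TPM against 259 to 434. Without Nup210+/+ replicate 2 that median was -0.39. Nup210+/+ replicate 4 had the lowest leukocyte sum and the lowest Tmod3 of its genotype. The highest sum of that genotype, 434, was in replicate 3, but the highest Tmod3 was in replicate 2. In replicates 1 to 4 labelled Nup210-/- the sums were 229, 244, 218 and 242, with the highest Tmod3 in replicate 1. The part of leukocytes in the level of Tmod3 was not tested.

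Lmod2 (ENSMUSG00000029683), on chromosome 6 from 24597762 to 24605414 on the plus strand, had the largest estimate below 0. Replicates 1 to 4 labelled Nup210-/- had 110, 130, 108 and 131 scaled TPM, and those labelled Nup210+/+ had 155, 115, 155 and 155. The Nup210+/+ libraries agreed within rounding except for replicate 2, which fell among the Nup210-/- values. The difference on the log2 scale was -0.27 (SE 0.115, 95% interval -0.53 to -0.01; limma, adjusted p = 0.34). Without Nup210+/+ replicate 2 it was -0.37 (95% interval -0.56 to -0.18), with no overlap and an adjusted p of 0.142. With the scaling to fibre genes it was -0.44, also with no overlap. Slow fibre genes varied along with Lmod2 within each genotype. In the Nup210-/- libraries with 110 and 108 scaled TPM of Lmod2 their sum was 1108 and 1067, and in those with 130 and 131 it was 1927 and 2003. In Nup210+/+ replicate 2 the sum was 1201, against 1696 to 2075 in the other 3. Between genotypes the slow fibre sums overlapped, and 0 of their 8 genes passed an unadjusted p of 0.05, with a median log2 fold change of -0.15. Without Nup210+/+ replicate 2, 2 of the 8 passed, both lower, and the median was -0.33. In that fit 949 of all 14090 genes tested were lower at that p. Without Nup210-/- replicate 1 or 3, 0 of the 8 slow fibre genes passed and the median was -0.01. The part of the slow fibres in the difference of Lmod2 was not tested.

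Lmod3 (ENSMUSG00000044086), on chromosome 6 from 97238534 to 97252759 on the minus strand, had 67.9, 81.4, 69.4 and 69.0 scaled TPM in replicates 1 to 4 labelled Nup210-/- and 71.4, 70.0, 63.0 and 72.1 in those labelled Nup210+/+. All but Nup210-/- replicate 2 and Nup210+/+ replicate 3 lay within 5 scaled TPM of each other. The log2 fold change was 0.05 (95% interval -0.12 to 0.22; limma, adjusted p = 0.775), and it was -0.01 without Nup210-/- replicate 2, -0.04 with TPM as deposited and -0.12 with the scaling to fibre genes.

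**Figure D2:**
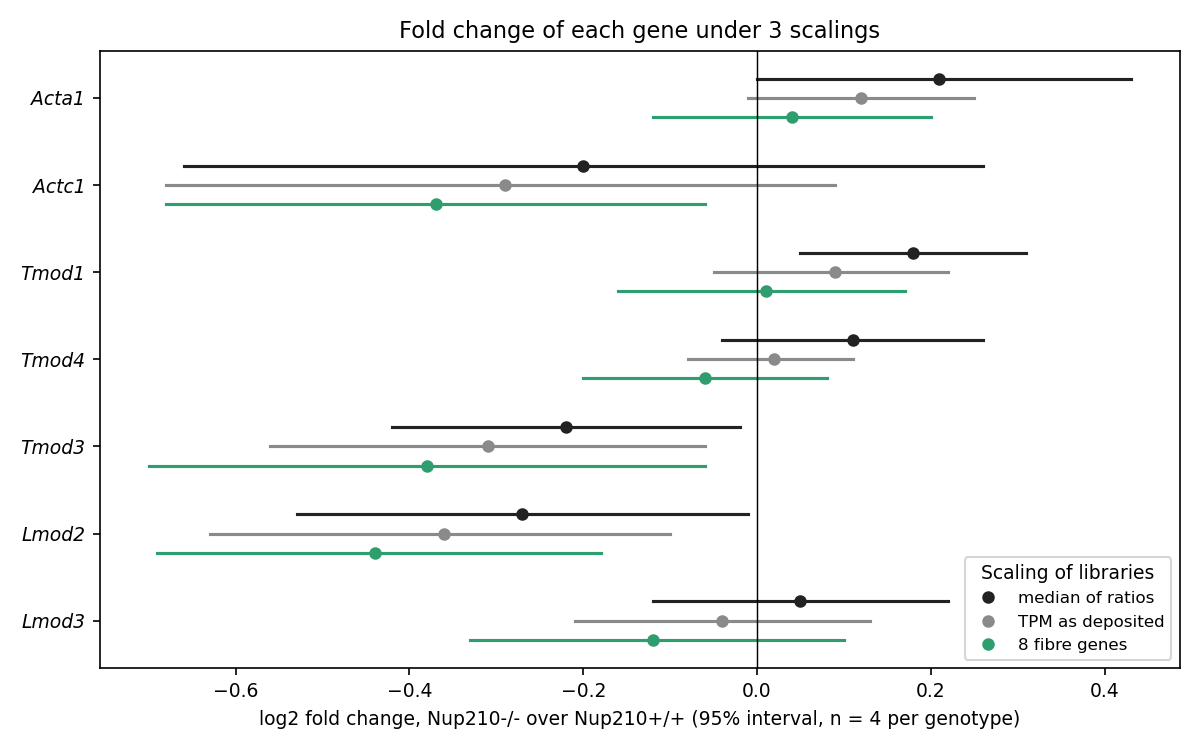
Log2 fold change of Nup210-/- over Nup210+/+ (horizontal axis, points) with its 95% interval (lines) for the 7 genes under 3 scalings of the libraries, with 4 libraries per genotype. Every estimate moves to the left from the median of ratios through the TPM as deposited to the scaling on 8 fibre genes, from 0.21 to 0.04 for Acta1 and from -0.27 to -0.44 for Lmod2.

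Because a ratio of TPM within a library does not depend on how libraries are scaled, 4 such ratios were compared between genotypes with two-sided exact permutation tests, adjusted over the 4. Actc1 was 0.945% of Acta1 (geometric mean) in the libraries labelled Nup210-/- and 1.26% in those labelled Nup210+/+, where replicate 4 reached a ratio of 0.0193. The log2 ratio was -6.73 ± 0.11 and -6.31 ± 0.449 (SD, n = 4), a difference of -0.42 (exact p = 0.114, adjusted 0.152), and -0.21 without Nup210+/+ replicate 4. The balance of fast-fibre Tmod4 to Tmod1 hardly varied, with ratios of 2.52 to 2.72 and 2.49 to 2.94, a log2 difference of -0.07 (exact p = 0.286, adjusted 0.286). Without Nup210+/+ replicate 2 that difference was -0.04.

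The ratio of Lmod2 to Lmod3 was 1.63, 1.6, 1.55 and 1.9 in replicates 1 to 4 labelled Nup210-/- and 2.18, 1.64, 2.46 and 2.15 in those labelled Nup210+/+. Only Nup210-/- replicate 4 and Nup210+/+ replicate 2 crossed. The log2 ratio was 0.73 ± 0.132 and 1.06 ± 0.247 (SD, n = 4), a difference of -0.32 (exact p = 0.0571, adjusted 0.114). Summed over the 5 tropomodulin and leiomodin genes, TPM were 790.36 to 806.73 and 796.95 to 855.25. Relative to both actins they were 3.44 to 3.69% in the libraries labelled Nup210-/- and 3.65 to 4.44% in those labelled Nup210+/+, where replicate 3 was highest. The log2 difference was -0.16 (exact p = 0.0571, adjusted 0.114). In all 4 ratios the genotypes overlapped, and 0 of 4 passed an unadjusted or adjusted p of 0.05 in the exact permutation test, which could have gone as low as 0.0286. With 1 library left out the smallest possible p is 0.0571.

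**Figure D3:**
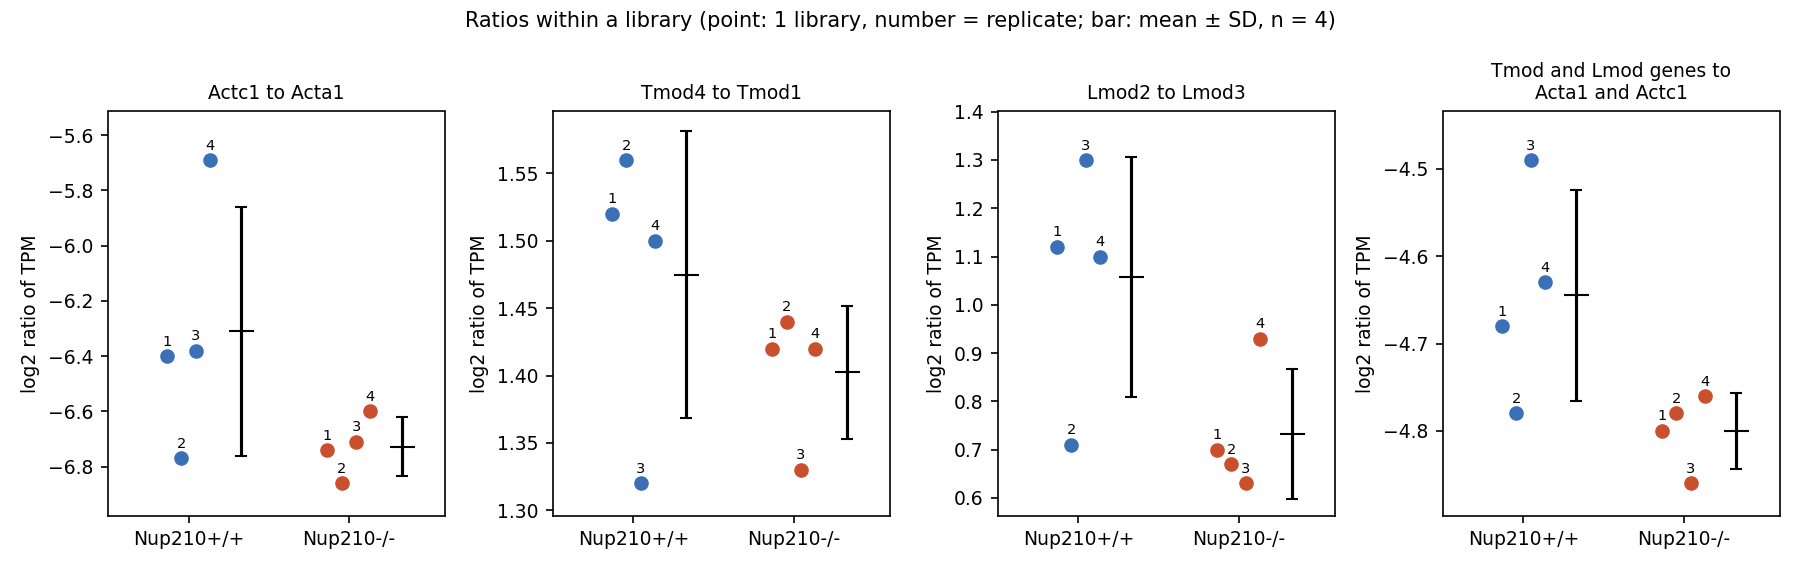
Log2 ratio of TPM within each library (vertical axes, which do not start at 0) for Actc1 to Acta1, Tmod4 to Tmod1, Lmod2 to Lmod3, and the summed tropomodulin and leiomodin genes to both actins, with points numbered by replicate and bars for the mean ± SD of 4 libraries. The genotypes overlap in all 4 panels, and Nup210+/+ replicate 4 stands highest for Actc1 to Acta1 at -5.69.

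The remaining genes of the same families are those of smooth muscle, nerve and non-muscle cells. Of 6 listed, 5 were tested and 0 passed an adjusted p of 0.05 by limma, 1 was higher and 2 were lower at an unadjusted p of 0.05, and the median log2 fold change was -0.22. These 3 of 5 stand against 14.2% of all genes. The total of 3 was 1 without Nup210-/- replicate 1 or without Nup210+/+ replicate 2, and with TPM as deposited or the scaling to fibre genes it was 0 higher and 3 lower. Acta2, the smooth muscle alpha-actin, had 14.9 to 16.6 scaled TPM in the libraries labelled Nup210-/- and 17.9 to 25.6 in those labelled Nup210+/+, without overlap. Its log2 fold change was -0.41 (SE 0.112; limma, adjusted p = 0.179). Actg1, a cytoplasmic actin, had a log2 fold change of -0.22 (adjusted p = 0.265), and Lmod1, the smooth muscle leiomodin, one of 0.38 (adjusted p = 0.337). The smooth muscle genes Acta2 and Lmod1 thus had estimates of opposite sign. The sum of 7 smooth muscle markers was 88.3 to 105 and 79.9 to 92.6 scaled TPM. Of these markers 5 were tested, with 1 positive and 4 negative estimates and a median log2 fold change of -0.02. The positive one was Smtn at 0.33, which alone had 47.2 to 59.9 and 38.9 to 45.4 scaled TPM. The part of smooth muscle in the values of Acta2 and Lmod1 was not tested.

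Thin filament partners are the tropomyosins, troponins, nebulin, the CapZ subunits that cap the barbed end, and Kelch proteins that stabilise the filament. All 16 listed were tested, and 0 passed the adjusted threshold by limma, 2 were higher and 0 lower at an unadjusted p of 0.05, and the median log2 fold change was 0.08. These 2 of 16 are near the 14.2% of all genes. The split was 1 higher and 2 lower with TPM as deposited, and 0 higher and 2 lower, with a median of -0.10, with the scaling to fibre genes. Klhl41, which protects nebulin, had 348 to 408 scaled TPM in the libraries labelled Nup210-/- and 304 to 337 in those labelled Nup210+/+. Its log2 fold change was 0.24 (SE 0.0671; limma, adjusted p = 0.18). Klhl40, which stabilises Lmod3 and nebulin, had 80.8 to 90.7 and 73.4 to 78.5 scaled TPM, a log2 fold change of 0.14 (adjusted p = 0.316). Both were without overlap, which makes 2 of the 16 genes, against 9.38% of all genes tested, 4.78% higher. A relation of Klhl40 to Lmod3, whose genotypes overlapped, was not tested. The lowest estimate was that of Capza1, a CapZ subunit, at -0.30 (adjusted p = 0.391), which was -0.14 without Nup210+/+ replicate 2. The count of 2 was 1 without Nup210-/- replicate 3 or 4 or Nup210+/+ replicate 2, and 7 without Nup210+/+ replicate 4.

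Actin turnover, the cutting, recycling and sequestering of actin monomers, was the largest of the lists. All 19 listed were tested, and 0 passed an adjusted p of 0.05 by limma, but 5 were higher and 8 lower at an unadjusted p of 0.05, with a median log2 fold change of -0.10, against 7% and 7.18% of all genes. The split was 3 higher and 8 lower, with a median of -0.19, with TPM as deposited, and 0 higher and 10 lower, with a median of -0.27, with the scaling to fibre genes. The lower genes were Cfl1 and Dstn, which sever filaments, their cofactor Wdr1, the monomer-binding Cap1, Twf1, Tmsb4x and Tmsb10, and the cofilin kinase gene Limk1. Cfl1 had 39.6 to 42.6 scaled TPM in the libraries labelled Nup210-/- and 50.9, 101, 53.1 and 51.5 in replicates 1 to 4 labelled Nup210+/+, a log2 fold change of -0.58 (SE 0.2; limma, adjusted p = 0.248). Without Nup210+/+ replicate 2, the highest, it was -0.34 (adjusted p = 0.076). Dstn had a log2 fold change of -0.55, Twf1 -0.47, Tmsb4x -0.40, Cap1 -0.40, Limk1 -0.34, Wdr1 -0.33 and Tmsb10 -0.32. Among these 8 the lowest adjusted p was 0.092, for Tmsb4x, which had 327 to 382 and 426 to 506 scaled TPM.

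The higher genes of this list were Cap2 and Twf2, the forms of those proteins abundant in muscle, the formin genes Fhod1 and Fhod3, and Limk2. Fhod3 had 21.5 to 27.3 scaled TPM in the libraries labelled Nup210-/- and 16.4 to 20.1 in those labelled Nup210+/+, a log2 fold change of 0.34 (SE 0.0905; limma, adjusted p = 0.17). The log2 fold change was 0.29 for Twf2, 0.26 for Limk2, 0.22 for Cap2 and 0.21 for Fhod1. The number of higher genes was 3 without Nup210-/- replicate 4 or Nup210+/+ replicate 1. Leukocytes are rich in Cfl1 and Tmsb4x, and the leukocyte marker sums given with Tmod3 differed in the direction of these genes without overlap. Their part in the lower estimates was not tested.

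SRF and its coactivators respond to free actin monomers and drive actin genes. Of 5 listed genes 4 were tested. An adjusted p of at most 0.05 by limma was found for 0.112% of all genes tested, 0.0492% higher and 0.0633% lower. Abra, a muscle protein that binds actin and activates SRF, was the only gene of the list to pass an adjusted p of 0.05. It fell in the libraries labelled Nup210-/-, which had 182 to 216 scaled TPM against 275 to 325 in those labelled Nup210+/+, a log2 fold change of -0.61 (SE 0.082; limma, adjusted p = 0.049). This call lay at the threshold, held in 8 of 21 alternative fits, with an adjusted p of 0.00417 to 0.232, and was lost without any single one of the 8 libraries. Srf itself had a log2 fold change of -0.01 (95% interval -0.21 to 0.19), and its coactivator genes Mkl1 and Mkl2 had 0.09 and -0.12. Without Nup210+/+ replicate 2, Srf had 0.01 and Mkl1 had 0.20. Mkl1 had -0.02 without Nup210+/+ replicate 4 and -0.07 with the scaling to fibre genes. Acta1 and Actc1, whose promoters hold a CArG box, had estimates of 0.21 and -0.20.

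**Figure D4:**
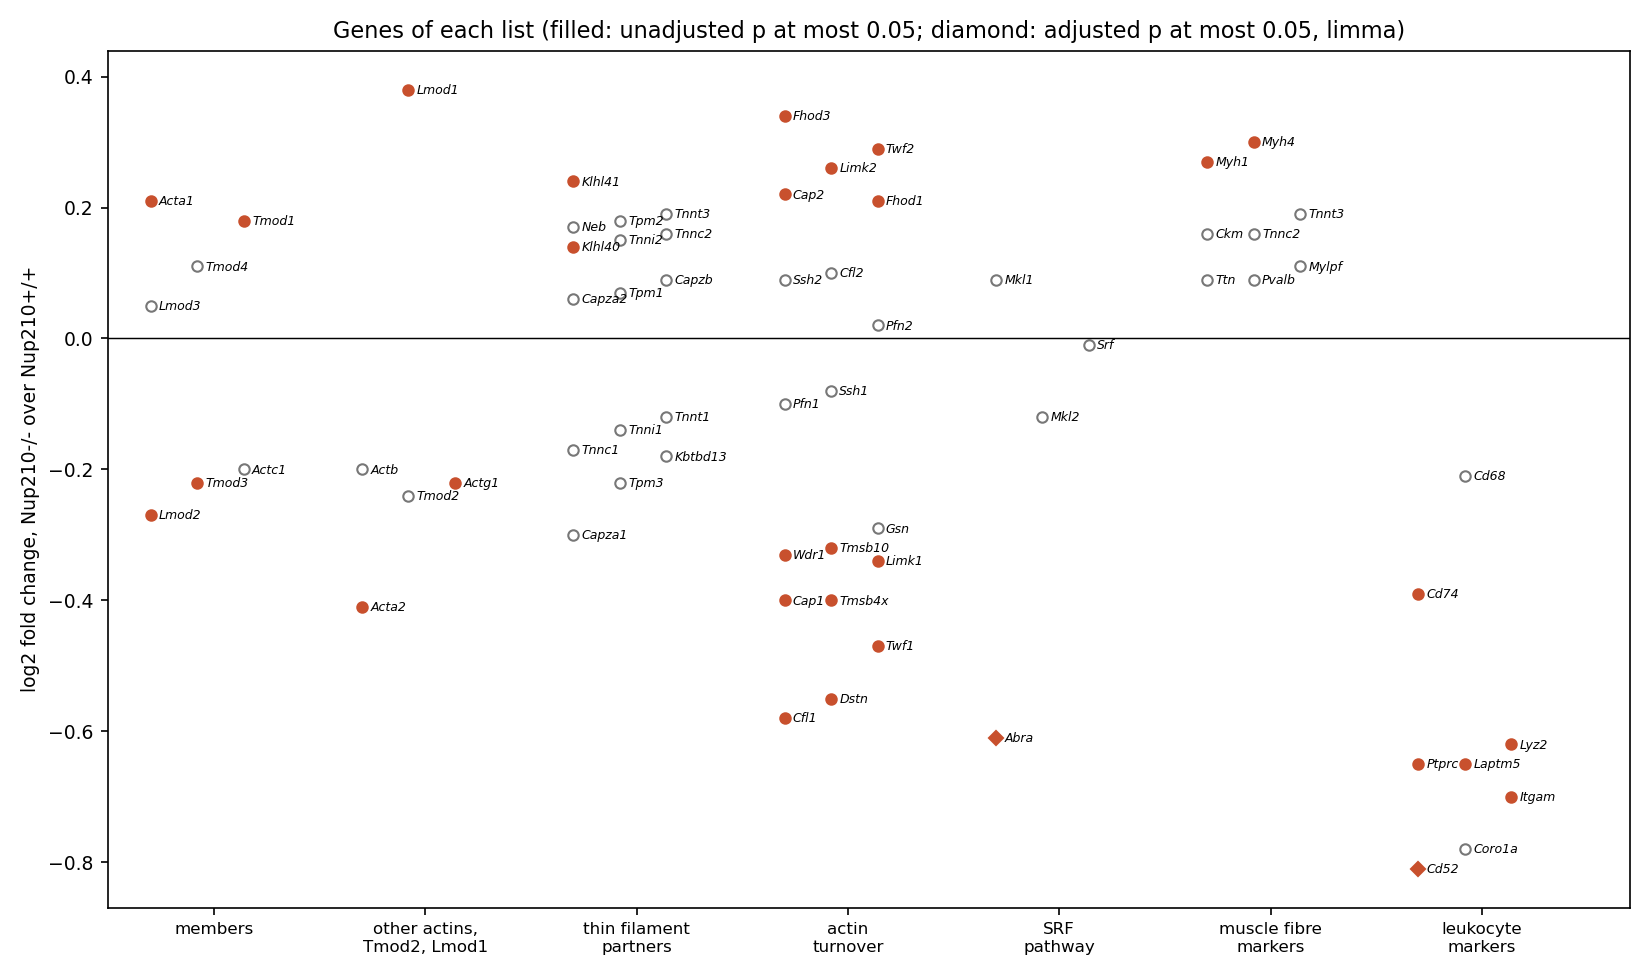
Log2 fold change of Nup210-/- over Nup210+/+ (vertical axis) of each gene tested in 7 lists (horizontal axis), with filled symbols for an unadjusted p of at most 0.05 and diamonds for an adjusted p of at most 0.05 by limma. Only Abra at -0.61 and the leukocyte gene Cd52 at -0.81 are diamonds, and the 7 actin, tropomodulin and leiomodin genes lie between -0.27 and 0.21.

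The genes whose levels followed each of the 7 most closely over the 8 libraries were found among 6085 genes with a mean of at least 10 TPM, as a description in which the points share library and scaling. For Acta1 they were Nomo1, Ybx3 and Smpx, with Pearson correlations of 0.99, 0.98 and 0.98. For Lmod2 they were Ski, Ankrd2 and Pacsin2 (0.98, 0.97 and 0.95), and for Actc1 Hagh, Clec16a and U2af1l4 (0.97, 0.95 and 0.94). Tmod1 was most like Txndc15, Gpcpd1 and Zranb1 (0.97, 0.97 and 0.96). Tmod4 was most like Polb, Ppm1a and Jtb (0.98, 0.98 and 0.97). Tmod3 was followed by Yipf5, Sh3bgrl and Mtpn (0.96, 0.95 and 0.94), and Lmod3 by Rnf167, Ptcd2 and Nae1 (0.96, 0.95 and 0.94). The Spearman correlations of these 21 genes were 0.76 to 0.98. None of the 7 genes was among the 3 closest to another.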

How the data were processed

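RNA from quadriceps of 4 mice labelled Nup210-/- and 4 labelled Nup210+/+ was measured, with groups and replicate numbers from the sample labels. Per the labels, libraries were directional and made from polyadenylated RNA, and 75 bases were read from one end. Reads were then trimmed by the authors with cutadapt 2.3, aligned to mm10 with STAR 2.7.0d and passed to RSEM 1.3.1 for estimates of expression, and TPM were deposited per gene and library without pooling. The counts behind the study's own test were not used here, so depth is unknown and that test was not repeated. A gene that takes more of a library lowers the TPM of all others.

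TPM were scaled by the median of ratios over 15225 genes above 0 in all libraries. On log2(scaled TPM + 1), limma 3.58.1 in R 4.3.3 was fitted to the 14229 genes whose TPM averaged 0.5 or more, with genotype alone and an intensity trend, and p-values were adjusted over all of them by Benjamini-Hochberg. This scale understates changes of low genes. Ratios and single genes went through an exact permutation test, two-sided, over 70 labelings (scipy 1.17.1). The analysis was tested on simulated data, with 200 of 14229 genes changed in each of 20 simulations. Of genes changed by a log2 of 0.5, 27.4% were called with the right sign, and of those changed by 1, 79%. A gene not called may thus still differ. Gene positions and transcripts are from GENCODE M21, promoters from RefSeq. The 7 genes, the lists and the tests were chosen with earlier results of these data known. Genes named from lists were those with an unadjusted p of at most 0.05 and the highest and lowest of each list. Other settings tried were a pseudocount of 0.1 or 0.5, a filter at any TPM or at a mean of 0.1 or 1, unscaled TPM, upper-quartile scaling, removal of mitochondrial and the 20 highest genes, eBayes without trend or robust, library weights, a replicate block, scaling to 8 fibre genes (chosen after seeing the data) and each library left out. That p-values reflect separate animals rests on the study's methods, which name 4 mice per genotype. The sample titles give only genotype and replicate number. One sequence comparison is not reported here.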

Additional observations from a re-analysis of the deposited data

Results flagged for a closer look

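Values of the 7 genes, their ratios and the marker sums were searched, over 40 groups of 4 libraries, for a library whose gap to the nearest other was too large a share of the range of its genotype by Dixon's 95% critical value. Chance gives about 1 such group in 20, and 4 of 40 were found. Acta1 in Nup210+/+ replicate 3 had 16949 scaled TPM against 20437 to 20863 in the other Nup210+/+ libraries, a gap of 0.891 of the range. Lmod2 in Nup210+/+ replicate 2 had 115 scaled TPM against 155 in each of the others (0.988). Lmod3 in Nup210-/- replicate 2 had 81.4 scaled TPM against 67.9 to 69.4 (0.885). The summed granulocyte precursor genes in Nup210+/+ replicate 2 had 368 scaled TPM against 0.325 to 2.06 (0.995). The causes were not tested.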

How the results depend on the processing

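Under all 21 alternatives, limma called 0 of the 7 genes at an adjusted p of 0.05. The log2 fold changes of Acta1, Tmod1, Tmod3 and Lmod2 kept their sign in all of them. That of Lmod3 reversed to -0.04 with TPM as deposited, to -0.12 with the scaling to fibre genes and to -0.01 without Nup210-/- replicate 2, that of Tmod4 to -0.06 with the scaling to fibre genes, and that of Actc1 to 0.03 without Nup210+/+ replicate 4. With one library left out, these ranged from -0.01 to 0.08 for Lmod3 and from -0.32 to 0.03 for Actc1. The number of the 7 genes at an unadjusted p of 0.05 (4) was 2 with a filter at any TPM above 0, 2 with TPM as deposited and 2 with upper-quartile scaling, and 1 to 4 with one library left out. The number without overlap (2, Acta1 and Tmod1) was 2 other genes, Actc1 and Lmod2, with the scaling to fibre genes, 0 with TPM as deposited, 1 with upper-quartile scaling and 1 to 4 with one library left out. TPM as deposited moved the median log2 fold change of all genes from -0.01 to -0.08, and the scaling to fibre genes moved it to -0.15.

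Over all genes tested, limma called 16 at an adjusted p of 0.05. This count was 1 with a filter at any TPM above 0, 0 with a filter at a mean of 0.1, 27 with a filter at a mean of 1, 0 with upper-quartile scaling, 10 with TPM rescaled without the mitochondrial and highest genes, 0 with eBayes without trend, 84 with library weights and 0 to 10 with one library left out. Where it was 0, genes at an unadjusted p of 0.05 numbered at least 1575. Among the 16 genes 7 were higher and 9 lower, against 2 and 12 with TPM as deposited and 1 and 15 with the scaling to fibre genes. The causes were not tested.

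Same-numbered libraries of the genotypes had correlations of their deviations of -0.03 to 0.09, and differently numbered ones -0.08 to 0.10. The labels do not say whether equal numbers mark paired mice, and correlations over 4 such pairs cannot decide it. With the replicate number as a block, 0 of the 7 genes and 0 of all genes were called, 3 of the 7 were at an unadjusted p of 0.05, and the ratios had p = 0.125, 0.25, 0.125 and 0.125 (exact test over pairs, smallest possible 0.125). Log2 differences of the ratios ranged over the libraries left out from -0.57 to -0.21 for Actc1 to Acta1 and from -0.44 to -0.24 for Lmod2 to Lmod3. Depth is unknown, so no counting error can be given for Tmod3, the lowest of the 7 at 9.38 to 14.94 TPM.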

Other observations

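Several actins and actin regulators exist as a pair of genes, of which one was taken here as the muscle form and the other as the widely expressed one. The balance within such pairs was not part of the comparisons above. The pairs were chosen after their values were seen, so no test is given. For the same reason, a shared direction or a lack of overlap among them is a description only. Differences are of the mean log2 ratio of the gene taken as the muscle form to the other, positive where higher in the libraries labelled Nup210-/-. The difference was 0.83 for Twf2 to Twf1, 0.69 for Cfl2 to Cfl1, 0.64 for Cap2 to Cap1, 0.42 for Acta1 to Actb, 0.37 for Capza2 to Capza1, 0.35 for Tmod4 to Tmod3 and 0.12 for Pfn2 to Pfn1. The genotypes did not overlap for Twf2 to Twf1 (4.21 to 5.01 in Nup210-/- and 3.37 to 4.01 in Nup210+/+, log2), Cfl2 to Cfl1 (2.7 to 2.81 and 1.28 to 2.43) and Acta1 to Actb (6.66 to 6.84 and 6.11 to 6.62), and overlapped for the other 4. Without Nup210+/+ replicate 2 the difference was 0.43 for Cfl2 to Cfl1, 0.22 for Capza2 to Capza1 and 0.06 for Pfn2 to Pfn1, and it was 0.32 to 0.73 for the remaining pairs. Values of whole muscle do not show which cells express the genes of a pair. Pfn2 and Pfn1 had nearly equal levels, with a mean log2 ratio of -0.01 in Nup210-/- and -0.13 in Nup210+/+. The denominators are also expressed by leukocytes, whose marker sums were 218 to 244 and 259 to 434 scaled TPM. The part of leukocytes in these ratios was not tested.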
